A study of Drosophila melanogaster with 36 samples.

Results

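Chromosome folding in OSCs depleted of the linker histone H1 was compared directly with folding in OSCs depleted of the histone methyltransferase Egg. The comparison rests on 4 of the 36 samples of the series, which are 2 Hi-C replicates of H1-KD and 2 of Egg-KD, chosen by their labels. The authors merged the replicates and deposited 1 contact matrix per KD, so neither KD has a spread between replicates, an n or a p-value. OSCs are a cell line of Drosophila ovarian somatic cells, and all cells were nucleofected with siRNA. The controls received siRNA against EGFP, which is no gene of the fly, and are called Control-KD. H1-KD and Egg-KD share 1 Control-KD matrix, and the Piwi, Nxf2 and HP1a series have 1 each. These 4 matrices are used as a yardstick and none of them enters the ratio of H1-KD to Egg-KD. Only the HP1a series and its Control-KD carry a time in their labels, which is 2 days. The files hold contacts and no expression values, so neither the depth of the KD nor the identity of the cells could be checked against marker genes.

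H1 binds the nucleosome where DNA enters and leaves it and helps nucleosome arrays to compact. Egg, the fly SETDB1, places H3K9me3, the mark that HP1a binds in heterochromatin. Both act downstream of Piwi, which piRNAs guide to transposons such as gypsy that are being transcribed. Hi-C ligates pieces of chromatin that were crosslinked together and counts how often each pair of genomic bins is joined. Most contacts fall between neighbours, and they are denser within topologically associating domains (TADs) than across the boundaries between them. The siRNA of H1-KD is shown because it defines that group. The strand printed is the sense strand, which reads like the target and pairs with the other strand of the duplex. Its capitals are the 19 bases paired in the duplex and its lower-case letters the 2 overhanging ones. RefSeq lists 23 His1 genes, all on 2L.
siH1-sense: GAAAGAUCCAGAUGCACCCtt

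The H1-KD matrix holds 25463370 contacts and the Egg-KD matrix 29400485, fewer than each Control-KD matrix, which hold 31120409 to 72450253. These are the contacts before correction, recovered from the deposited values. Of 2977 bins of 40 kb on X, 2L, 2R, 3L and 3R, 2950 were kept in both KDs. Every ratio below is log2 of H1-KD over Egg-KD after scaling to equal totals within arms, so a positive value means more contacts in H1-KD. The control-pair spread is the root mean square of the same ratio over the 6 pairs of Control-KD matrices. It holds differences between experiments, whereas H1-KD and Egg-KD belong to one series. The Control-KD of the Nxf2 series stood apart in its contacts at 120 to 400 kb, and its effect on the yardstick is given beside the results it touches.

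H1-KD had fewer contacts than Egg-KD between adjacent bins and more at 200 to 400 kb. At 40 kb the mean contact value was 1131 in H1-KD and 1304 in Egg-KD, a log2 ratio of -0.20. The control-pair spread there was 0.098 and the largest control pair 0.16 in size. The 5 arms lay between -0.22 and -0.19. The ratio was -0.076 at 80 kb, 0.040 at 120 kb and 0.19 at 200 kb. At 200 kb the 3 control pairs with the Nxf2 series reached 0.22 in size, and the other 3 lay between 0.0052 and 0.010. At 400 kb the mean value was 74.3 in H1-KD and 64.0 in Egg-KD, a ratio of 0.22 with a range over arms of 0.19 to 0.23. The control-pair spread at 400 kb was 0.11 and the largest control pair 0.18, and without the Control-KD of the Nxf2 series these were 0.043 and 0.055. From 1 to 10 Mb, the ratio lay within the range of control pairs. It was 0.068 at 1 Mb, -0.0020 at 2 Mb, 0.0039 at 4 Mb and 0.11 at 10 Mb, and control pairs reached 0.098, 0.10, 0.092 and 0.14 at these distances. From 10800 to 16000 kb it ran from 0.12 to 0.19, and control pairs reached 0.26. The signs from 40 to 400 kb hold for contacts scaled to equal totals, and on the values as deposited the ratio at 400 kb was 0.011.

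**Figure D1:**
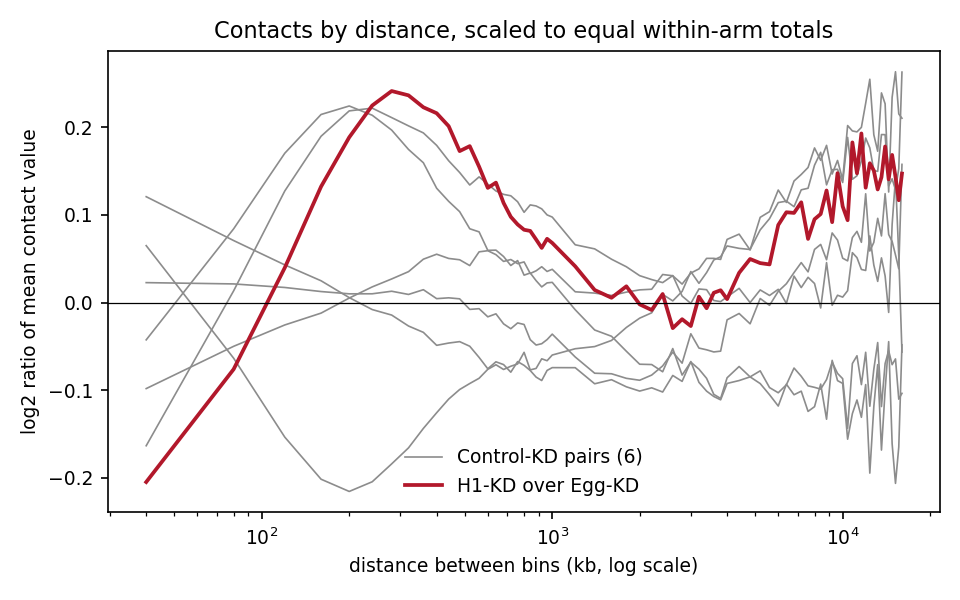
Log2 ratio of the mean contact value (y) against the distance between bins in kb (x, log scale), for H1-KD over Egg-KD (red) and the 6 pairs of Control-KD matrices (grey). The red line starts at -0.20 at 40 kb, below all grey lines, lies above all of them at 400 kb with 0.22, and runs among them from 1 to 10 Mb.

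At 40 and 80 kb, Egg-KD lay above all 4 Control-KD matrices and H1-KD below all but that of the HP1a series. Contacts at 40 and 80 kb made up 32.6% of the within-arm signal in Egg-KD, compared with 28.8% in H1-KD and 28.4 to 31.3% in the 4 Control-KD matrices. HP1a-KD, at 33.9%, was higher still, and Piwi-KD and Nxf2-KD were at 30.7 and 30.6%. The low end of the controls, 28.4%, was the Control-KD of the HP1a series alone, and the others were at 30.4 to 31.3%. The Control-KD shared by H1-KD and Egg-KD, at 30.8%, lay between these KDs. The share at 120 to 400 kb was 20.1% in Egg-KD and 22.1% in H1-KD, both within the range of 19.8 to 22.3% of the controls. The low end of this range, 19.8%, was the Control-KD of the Nxf2 series alone. Without that matrix Egg-KD lay below every control, and H1-KD still lay among them. Over 4 Mb, the shares of 20.2% in H1-KD and 19.1% in Egg-KD were both above the highest control, at 19.0%.

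Single bins were then compared by the sum of their contacts at 40 to 400 kb, centred on the median of the arm. The change had an SD of 0.098 over 2950 bins, compared with 0.026 to 0.075 in control pairs, and ran from -0.39 to 0.37. With the limit set at 3 such spreads, or 0.15 on the log2 scale, 141 bins were lower in H1-KD, 4.78% of all bins, and 181 were higher, 6.14%. The control pair that differed most, Nxf2 series against Piwi series, had 30 bins on one side and 77 on the other. With the spread of the 3 pairs that leave out the Nxf2 series the limit was 0.12, and 315 bins were lower and 368 higher. The change was larger than in every control pair at the same bin in 127 of the 141 lower and 179 of the 181 higher bins, and larger than 3 times its counting error in 137 and 180. Since these bins were picked for a large change, such counts are largely fixed by the choice, and over the 2942 bins kept in all 9 matrices they were 1486 and 1260. X held 42 lower and 36 higher bins of 553, 2L 22 and 30 of 567, 2R 26 and 35 of 528, 3L 14 and 30 of 605, and 3R 37 and 50 of 697. Joined to their neighbours, the lower bins formed 84 regions, 51 of them a single bin and the longest 280 kb. The higher bins formed 124 regions, 84 of them a single bin and the longest 200 kb. On contacts before ICE, the correction that gives every bin the same total, 125 of the 141 lower bins were negative and 170 of the 181 higher bins positive. Over the 2942 bins kept in all 9 matrices, 1467 were negative and 1471 positive. The same contacts enter both versions, so these signs too are largely fixed by the choice. Before ICE, 65 lower and 58 higher bins passed the limit set in the same way.

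The level of a bin, its contacts at 40 to 400 kb relative to the arm median in one matrix, shows which KD moved. In the lower bins it was H1-KD. The median level of these bins was 0.12 in H1-KD and 0.31 in Egg-KD, with 0.28 to 0.34 in the 4 Control-KD matrices. H1-KD lay below all 4 controls by more than 1 control-pair spread in 116 of 141 bins, 82.3%, as against 13.8% of the 2942 bins kept in all 9 matrices, and Egg-KD lay above them in 6, 4.26%, as against 3.47% of those bins. In the higher bins both KDs moved. Their median level was -0.26 in H1-KD and -0.47 in Egg-KD, with -0.42 to -0.37 in the controls. H1-KD was above all 4 controls in 121 of 181 bins, 66.9%, against 18.2% of all bins. Egg-KD was below them in 76, compared with 10.5% of all bins, and 23 bins had both on opposite sides, as had 29 of the 2942. These bins were picked by the ratio of H1-KD to Egg-KD, so their levels describe them and test nothing. HP1a-KD had a median level of 0.18 in the lower bins, between H1-KD and the lowest control, and of -0.37 in the higher bins. Piwi-KD had 0.27 and -0.40 and Nxf2-KD 0.30 and -0.45.

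Bins that hold many local contacts in the control OSCs of the other series were lower in H1-KD, and bins that hold few were higher. Density was taken from the 3 Control-KD matrices of the other series, and bins were divided into quintiles. The median change from the sparsest to the densest quintile was 0.096, 0.041, -0.0054, -0.039 and -0.085. The densest minus the sparsest quintile was -0.18, and it was between -0.078 and 0.13 in control pairs, which reached 0.060 in size without the Nxf2 series. Of the 141 lower bins, 79 were in the densest quintile and 6 in the sparsest, and of the 181 higher bins 127 were in the sparsest and 2 in the densest. On contacts before ICE the difference was -0.21, with -0.10 to 0.057 in control pairs. It was largest between 80 and 120 kb, where the median fell from 0.17 in the sparsest to -0.17 in the densest quintile. At 40 kb the medians were 0.091 and -0.045, and at 160 to 400 kb 0.012 and -0.094. Beyond that the order turned, with -0.049 and 0.097 at 440 to 960 kb and -0.044 and 0.094 at 1 to 4 Mb. Since ICE fixes the total of every bin, a bin that loses contacts at one distance must gain them at another, so the short- and long-range changes are tied to each other.

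**Figure D2:**
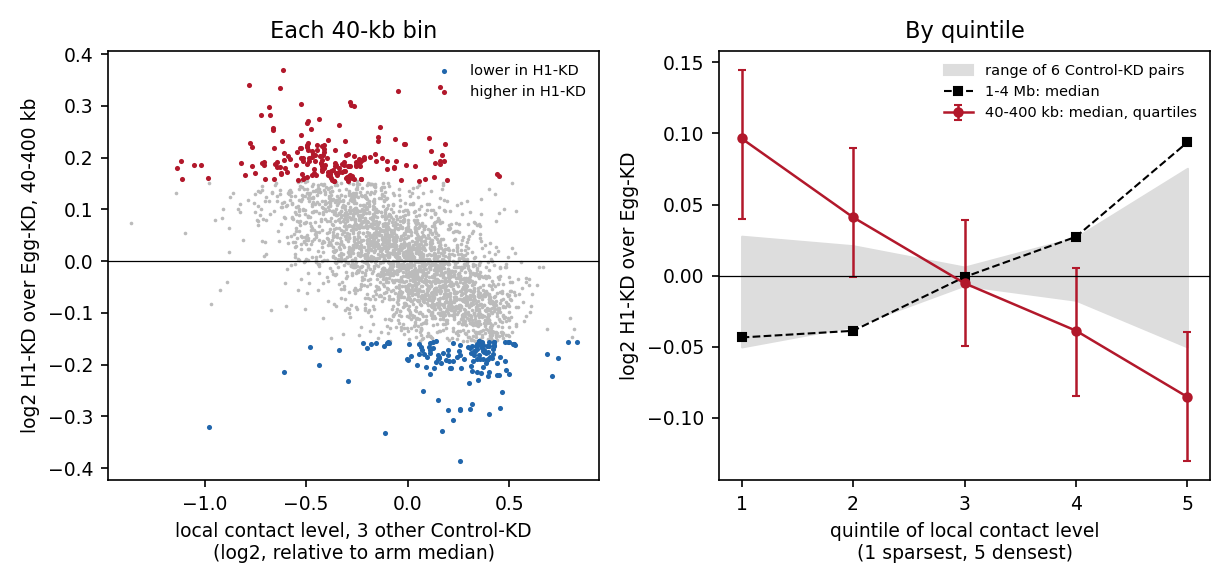
Left, change of each 40-kb bin at 40 to 400 kb (y, log2 H1-KD over Egg-KD) against its local contact level in 3 Control-KD matrices (x, log2), with the 141 lower bins in blue and the 181 higher bins in red. Right, median change per quintile of that level at 40 to 400 kb (red, bars are quartiles) and at 1 to 4 Mb (black), beside the range of the 6 control pairs at 40 to 400 kb (grey), showing a fall from 0.096 to -0.085 at short range and the opposite order at long range.

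Bins were accordingly more alike in H1-KD than in Egg-KD. The SD of the level over bins was 0.26 in H1-KD and 0.32 in Egg-KD, with 0.28 to 0.33 in the 4 controls, and HP1a-KD, at 0.27, was the closest to H1-KD. Without the Nxf2 series the controls ran from 0.28 to 0.30, so that Egg-KD was above them and H1-KD below. The middle 90% of bins ran from -0.47 to 0.35 in H1-KD and from -0.57 to 0.43 in Egg-KD. The SD in H1-KD was below all 4 controls on every arm, and below HP1a-KD on every arm but 2L, where it was 0.28 in H1-KD and 0.27 in HP1a-KD. Before ICE, where the coverage of the bins adds to the spread, the SD was 0.56 in H1-KD and 0.58 in Egg-KD, with 0.57 to 0.60 in the controls.

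The 5 lower regions with the largest peak were on X, 2R and 3R. The first, chrX:4600001-4720000, had its peak at chrX:4640001-4680000, where the level was -0.23 in H1-KD and 0.13 in Egg-KD, with 0.16 to 0.28 in the controls, a change of -0.39. Coverage before ICE was higher in H1-KD there by 0.48, only 669 and 678 short-range contacts were recovered, and before ICE the change was 0.19, of the opposite sign. The second, chr2R:2160001-2240000, next to removed bins, had a level of -0.53 in H1-KD, -0.18 in Egg-KD and -0.21 to -0.038 in the controls, a change of -0.33 that was -0.0058 before ICE. The third, chrX:21800001-21840000, was a sparse bin beside removed ones, with a level of -1.46 in H1-KD, -1.16 in Egg-KD and -1.08 to -0.83 in the controls. Its change was -0.32, and control pairs differed there by up to 0.25.

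The fourth, chr3R:25120001-25280000, had a level of 0.0030 in H1-KD, 0.30 in Egg-KD and 0.19 to 0.26 in the controls at its peak, so that Egg-KD lay above and H1-KD below all of them. The change was -0.31 and 0.013 before ICE. The fifth, chrX:20640001-20920000, was the longest of these regions, with a level of 0.094 in H1-KD, 0.37 in Egg-KD and 0.35 to 0.45 in the controls at its peak and a change of -0.30, which was -0.035 before ICE. In the same bin contacts at 1 to 4 Mb were higher in H1-KD by 0.45. At all of these 5 peaks H1-KD was the lowest of the 9 matrices. HP1a-KD was below every control at each of them too, with levels of -0.016, -0.32, -1.38, 0.12 and 0.24 in this order. Coverage in H1-KD was higher by 0.23 to 0.48 at the 5 peaks, compared with a median of 0.067 over the 141 lower bins, and the part of coverage in these changes was not tested.

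In 3 of the 5 higher regions H1-KD lay above and Egg-KD below all controls, both by more than 1 control-pair spread. In chr3R:25560001-25680000, downstream of the fourth lower region on the same arm, the peak level was -0.50 in H1-KD and -0.88 in Egg-KD, with -0.65 to -0.58 in the controls. The change was 0.37 and 0.47 before ICE, the largest of all bins. Piwi-KD, at -0.78, and Nxf2-KD, at -0.73, were below all controls there as well. In chrX:17560001-17640000 the peak level was likewise -0.50 in H1-KD and -0.86 in Egg-KD, with -0.71 to -0.57 in the controls, a change of 0.34, or 0.27 before ICE. Here Piwi-KD and Nxf2-KD lay among the controls, at -0.61 and -0.69. The single bin chrX:21480001-21520000, beside removed bins, had -0.62 in H1-KD, -0.98 in Egg-KD and -0.87 to -0.68 in the controls. Its change of 0.34 turned to -0.11 before ICE, and control pairs reached 0.18. Piwi-KD, Nxf2-KD and HP1a-KD were also below all controls in this bin, at -1.03, -0.93 and -1.03.

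In the other 2, chrX:160001-280000 and chr3L:17880001-17960000, H1-KD lay close to the controls and Egg-KD far below them. On X the peak level, at chrX:200001-240000, was 0.19 in H1-KD, 0.14 to 0.22 in the controls and -0.17 in Egg-KD, a change of 0.34. Piwi-KD and Nxf2-KD were low as well, at -0.15 and -0.087, and HP1a-KD was at 0.13. Before ICE this change was -0.024, and the coverage of the bin was lower in H1-KD by 0.31. On 3L the peak level was -0.0016 in H1-KD, -0.048 to -0.025 in the controls and -0.32 in Egg-KD, a change of 0.33, or 0.16 before ICE, with control pairs reaching 0.027. Piwi-KD was at -0.28, Nxf2-KD at -0.26 and HP1a-KD at -0.16. The neighbouring bin of the region had a change of 0.23, with -0.024 in H1-KD, -0.020 to 0.019 in the controls and -0.24 in Egg-KD and Piwi-KD. The peak bin holds TAD probe-2, a FISH probe of the study at chr3L:17947436-17951209.

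**Figure D3:**
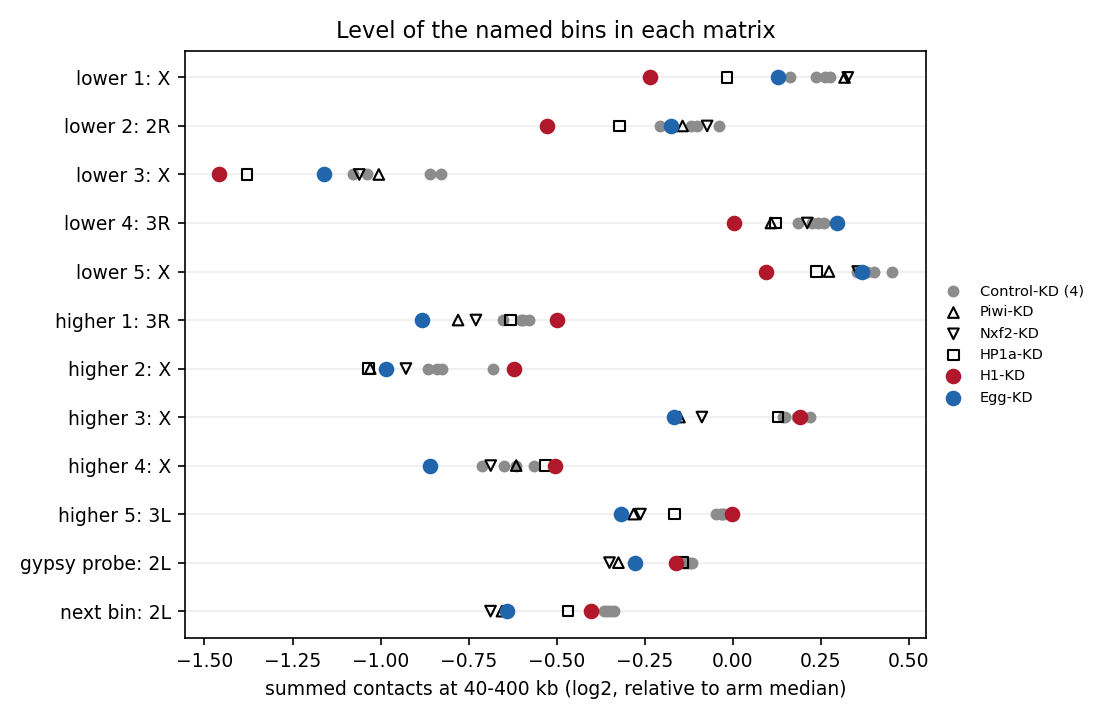
Level of each named bin (x, log2 of its summed contacts at 40 to 400 kb relative to the arm median) in H1-KD (red), Egg-KD (blue), the 4 Control-KD matrices (grey) and Piwi-KD, Nxf2-KD and HP1a-KD (open symbols). H1-KD is the lowest of the 9 matrices in the 5 lower bins, and Egg-KD lies beside Piwi-KD and Nxf2-KD, apart from H1-KD and the controls, in the third and the last higher bin and in the bin of the gypsy probe and the next.

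**Figure D4:**
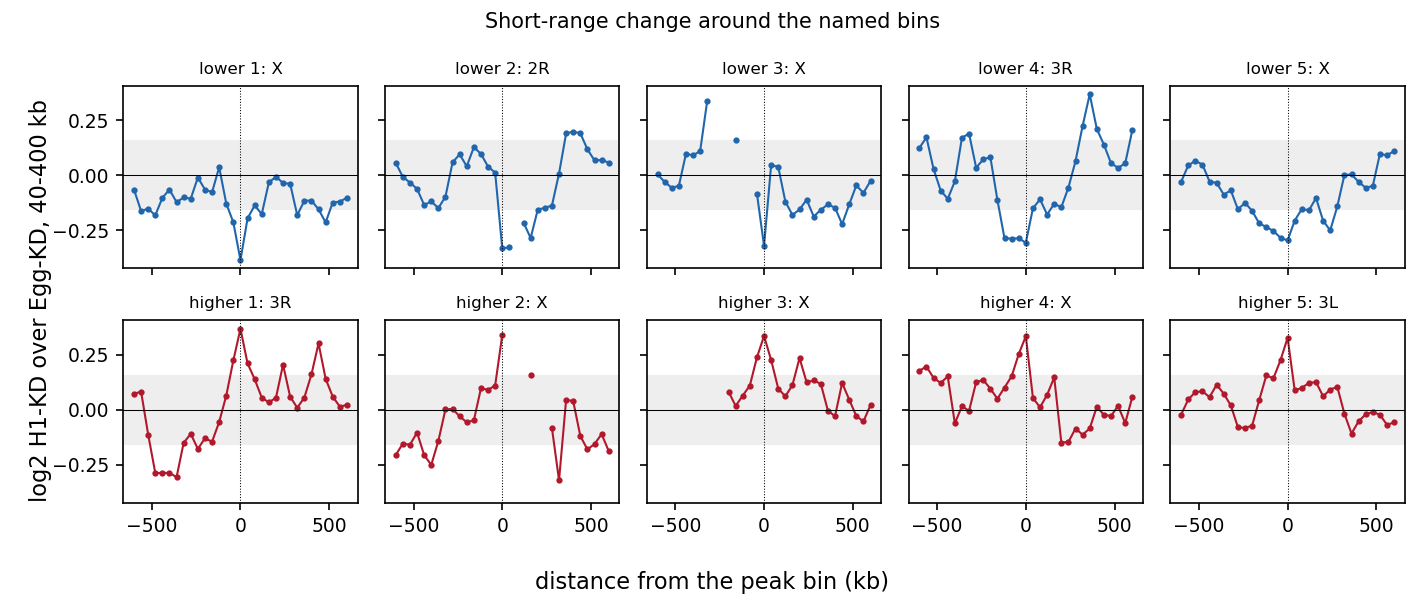
Change at 40 to 400 kb (y, log2 H1-KD over Egg-KD) against the distance from the peak bin in kb (x) for the 5 lower (blue) and 5 higher (red) regions, with the limit of 0.15 on either side shaded and gaps at removed bins. The fourth lower and the first higher panel show the same part of 3R, where a trough of -0.31 and a peak of 0.37 follow each other.

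The gypsy insertion on 2L, a piRNA target at which the study placed a FISH probe, differed between the KDs. The probe lies at chr2L:429791-433786. In its bin, chr2L:400001-440000, the level was -0.16 in H1-KD, -0.28 in Egg-KD, -0.32 in Piwi-KD, -0.35 in Nxf2-KD and -0.14 in HP1a-KD, against -0.14 to -0.11 in the controls. The change was 0.095, under the limit of 0.15, with control pairs at this bin reaching 0.025. In the next bin, chr2L:440001-480000, it was 0.22, past the limit. The level there was -0.40 in H1-KD, -0.64 in Egg-KD, -0.66 in Piwi-KD, -0.69 in Nxf2-KD and -0.47 in HP1a-KD, against -0.37 to -0.34 in the controls. One bin further it was 0.14, and the bins on the other side, at -0.012 and -0.067, did not differ by more than the limit. Before ICE the bin of the probe and the next had changes of 0.050 and 0.18. H1-KD thus lay close to the controls in both bins and Egg-KD close to Piwi-KD and Nxf2-KD.

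The other locus with FISH probes lies on 3L. TAD probe-1 lies at chr3L:17550003-17554855, and its bin, chr3L:17520001-17560000, had a change of 0.11, with a level of -0.49 in H1-KD, -0.60 in Egg-KD and -0.66 to -0.57 in the controls, and a change of -0.023 when contacts were first divided by their expectation at each distance. The bin of TAD probe-2 is the fifth higher region above. The contact between both probes, 400 kb apart, was supported by 148 contacts in H1-KD and 187 in Egg-KD. Its ratio was -0.055, smaller than its counting error, 0.16, and than the spread of control pairs, 0.17, while the median of 590 pairs at this distance on 3L was 0.25.

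TADs were called from a separation score, which is low where few contacts cross a border. H1-KD had 192 boundaries and Egg-KD 186. With boundaries within 1 bin taken as shared, 28 were found in H1-KD alone and 22 in Egg-KD alone, and control pairs gave 7 to 41. Of the 28, 7 were present in all 4 controls, 13 in some and 8 in none. Of the 22, the same counts were 9, 9 and 4. All control counts above 15 came from pairs with the Nxf2 series, and the other 3 pairs gave 7 to 15, fewer than either KD. The median TAD of the summed matrices was 520 kb.

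Single boundaries differed by more than in control pairs. Those named below were picked for the largest differences, so that for them this is largely fixed by the choice. Over 233 borders the difference in score had an SD of 0.12, compared with 0.029 to 0.080 in control pairs. At the border before chrX:3040001 the score was -0.43 in H1-KD and -0.031 in Egg-KD, with -0.019 to 0.11 in the controls, -0.50 in Piwi-KD, -0.37 in Nxf2-KD and -0.12 in HP1a-KD. A boundary was called there in H1-KD and in no control. At chr2L:21520001 the score was -0.96 in H1-KD and -0.57 in Egg-KD, with -0.66 to -0.55 in the controls, and at chrX:21840001 it was -1.12, -0.80 and -0.81 to -0.65, with -1.13 in HP1a-KD. Both are boundaries in all 4 controls and were deeper in H1-KD. In the other direction, the boundary before chr2R:1560001, called in Egg-KD and all 4 controls, was lost in H1-KD. Its score was 0.16 in H1-KD, -0.40 in Egg-KD, -0.56 to -0.53 in the controls, -0.62 in Piwi-KD, -0.46 in Nxf2-KD and -0.45 in HP1a-KD. At chr3R:2200001 the score was -0.15 in H1-KD and -0.46 in Egg-KD, and the controls were at -0.29 to -0.18, with a boundary called in all of them. At chr3R:26080001 it was -0.46 in H1-KD and -0.68 in Egg-KD, where a boundary was called in Egg-KD and in no control, whose scores were -0.45 to -0.36.

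Contacts within TADs were lower in H1-KD in 91.2% of 194 TADs, a share that ran from 0 to 95.3% in control pairs. The mean log2 ratio was -0.079 for intra-TAD contacts and 0.087 for inter-TAD contacts, and control pairs reached 0.079 and 0.081 in size, close to either mean. The SD of the intra-TAD ratio over TADs was 0.066, compared with 0.017 to 0.054 in control pairs. The intra-TAD ratio was lowest in a TAD of 280 kb, chr2L:15480001-15760000, at -0.35, followed by chr3R:15480001-15680000 at -0.31 and chr3R:6680001-7040000 at -0.25. It was highest in chr2R:6000001-6440000, at 0.078. With the TADs divided by local density into 3 sets of 65, 65 and 64, the median intra-TAD ratio was -0.041, -0.069 and -0.11 from sparse to dense, and that of inter-TAD contacts 0.063, 0.083 and 0.11.

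At larger distances, bins of the same class on average contact each other more than bins of different classes. Classes were taken from the first eigenvector of the summed Control-KD matrices of the other series, and the contrast is the log2 ratio of same-class to different-class contacts at 1 to 10 Mb. It was lower in H1-KD than in Egg-KD on every arm. On X it was 0.30 in H1-KD and 0.41 in Egg-KD, with 0.37 to 0.44 in the controls. On 2R it was 0.33, 0.39 and 0.37 to 0.45, on 3L 0.29, 0.35 and 0.36 to 0.42, and on 3R 0.25, 0.30 and 0.28 to 0.34. On these arms H1-KD was below all 4 controls. Piwi-KD was below them too on X, 2R and 3L, at 0.34, 0.35 and 0.32, and so was HP1a-KD, at 0.35 on each. Egg-KD was below them on 3L, and Nxf2-KD lay among them on X, 2R, 3L and 3R. On 2L the eigenvector changed sign only 3 times and so marks blocks of the arm rather than classes. There the contrast was 0.79 in H1-KD and 0.84 in Egg-KD, with 0.75 to 0.78 in the controls, so that both KDs were above them. The mean difference over arms was -0.066, while control pairs had a spread of 0.029 and reached 0.046, or 0.028 without the Nxf2 series. On single arms the difference was larger than in every control pair on X, at -0.11, and 2L, at -0.054, and not on 2R, 3L and 3R, where the pair of the HP1a and Nxf2 series differed more. With classes by local density, a choice made after the block structure of 2L had been seen, H1-KD was below all 4 controls on the 5 arms and the mean difference was -0.040, less than the largest control pair, at 0.046. That pair involved the Nxf2 series, whose mean contrast was 0.27, while those of the other 3 controls ran from 0.23 to 0.25 and that of H1-KD was 0.21. With density classes, contacts among dense bins were at 0.88 times their expectation in H1-KD and 0.83 in Egg-KD. Contacts between classes were higher, at 0.93 and 0.91, and the controls had the same order. The density contrast thus came from contacts among sparse bins, at 1.24 in H1-KD and 1.31 in Egg-KD. In the eigenvector classes, signs were set so that the positive class goes with higher local density. The correlation with density was 0.36 on 2L and 0.68 to 0.83 on the other arms. Over all 5 arms, 2L among them, contacts within the negative class were at 1.18 times their expectation in H1-KD, 1.23 in Egg-KD and 1.21 to 1.25 in the controls. Contacts between both classes were at 0.85, 0.83 and 0.82 to 0.84. Contacts within the positive class went the other way from those within the negative class, at 0.98 in H1-KD, 0.93 in Egg-KD and 0.93 to 0.97 in the controls. The lower contrast in H1-KD thus did not come from a loss in both kinds of same-class contacts. At 400 kb to 1 Mb the mean class difference was -0.0046.

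**Figure D5:**
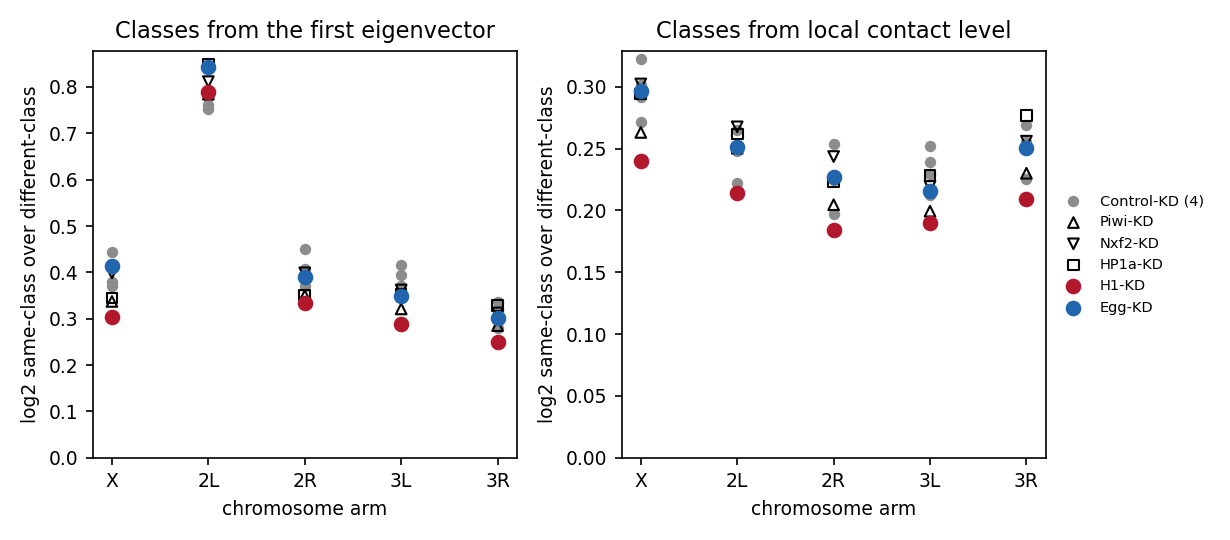
Contrast between same-class and different-class contacts (y, log2) on each arm (x) in H1-KD (red), Egg-KD (blue), the 4 Control-KD matrices (grey) and the other KDs (open symbols), with classes from the first eigenvector (left) and from the local contact level (right). H1-KD lies below Egg-KD on all arms in both panels, and below all controls except on 2L in the left panel.

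Per bin, contacts at 1 to 4 Mb had an SD of 0.11, compared with 0.048 to 0.084 in control pairs. With a limit of 0.19, 56 bins were lower in H1-KD, 1.9%, and 152 higher, 5.15%. Control pairs reached 85 bins in one direction, in the pair of the Nxf2 and Piwi series, and at most 17 in the 3 pairs without the Nxf2 series. With the limit from those 3 pairs, 0.16, 93 bins were lower and 225 higher. X held 42 of the higher bins and 7 of the lower, 3L 37 and 3, 2R 25 and 5, 3R 20 and 14, and 2L 28 and 27. Among the bins within 1 Mb of the centromere-proximal end of an arm, the long-range change was 0.33 on X, 0.25 on 3L, 0.14 on 2R, -0.044 on 3R and -0.086 on 2L, a mean of 0.12 with control pairs up to 0.092, or 0.042 without the Nxf2 series. Their short-range change was -0.11 on X, -0.097 on 2R and -0.077 on 3L, 0.022 on 2L and 0.070 on 3R, and the mean was -0.039, compared with a control-pair spread of 0.062, or 0.035 without the Nxf2 series. The telomere-proximal ends had means of 0.032 and 0.034 at short and long range, with control pairs up to 0.024 and 0.013.

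Contacts between arms did not separate the KDs. Their log2 ratio was 0.11, smaller than the control-pair spread of 0.18 and about the 0.10 found without the Nxf2 series, and it was 0.062 to 0.17 over the 10 pairs of arms. The highest, 2L with 3R, was above its control-pair spread of 0.14, and the other pairs of arms were below theirs. Control pairs reached 0.23 in size for 2L with 3R. It held 662375 contacts in H1-KD, and the other pairs from different chromosomes held 261985 to 352072. Between chromosomes, the share of the signal was 12.1% in H1-KD as against 11.3% in Egg-KD and 11.3 to 13.7% in the controls. Contacts between the centromere-proximal ends of different arms were higher in H1-KD by 0.31, and control pairs lay between -0.17 and 0.012. Relative to other contacts between arms this was 0.20, and control pairs reached 0.23 in size.

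Among 180 pairs of bins 1 Mb or more apart with at least 100 contacts in both KDs, 4 had a log2 ratio under -1 and none a ratio above 1. The largest difference was between chr2R:6360001-6400000 and chr2R:11120001-11160000, 4.76 Mb apart. The pair held 6.19 ppm of the within-arm signal in H1-KD, 19.1 ppm in Egg-KD and 11.1 to 22.2 in the controls, with 25.8 in Piwi-KD, 14.0 in Nxf2-KD and 12.3 in HP1a-KD. The ratio was -1.62 with a counting error of 0.13, and control pairs reached -1.004. On 2L, chr2L:13440001-13480000 with chr2L:15400001-15440000 had 3.06 ppm in H1-KD, 8.22 in Egg-KD and 5.33 to 13.7 in the controls, a ratio of -1.43, and control pairs reached -1.36. Both of these control values came from the pair of the Nxf2 and Piwi series. The adjoining bin, chr2L:13480001-13520000, had a ratio of -1.21 with the same partner. H1-KD was the lowest of the 9 matrices in all of these 3 pairs.

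The largest ratios in favour of H1-KD went with low values in Egg-KD. The pair of chr2L:20160001-20200000 with chr2L:21680001-21720000 had 16.6 ppm in H1-KD, 10.1 in Egg-KD, 12.5 to 17.4 in the controls and 10.8 in HP1a-KD, a ratio of 0.72. Its counting error was 0.19, from 130 and 104 contacts, and control pairs reached 0.48 in size. The neighbouring bin chr2L:20120001-20160000 had 28.2 ppm in H1-KD, 18.7 in Egg-KD, 23.4 to 30.2 in the controls and 18.0 in HP1a-KD with the same partner, a ratio of 0.60. Here the counting error was 0.13, and control pairs reached 0.37 in size. The pair of chr2R:4720001-4760000 with chr2R:10920001-10960000 had 8.83 ppm in H1-KD, 5.49 in Egg-KD and 8.41 to 11.5 in the controls, a ratio of 0.68. In all 3 pairs H1-KD was within the range of the controls and Egg-KD below it. The pairs were picked for their ratio, so these values describe them and test nothing.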

How the data were processed

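Hi-C was made by the authors with HindIII, reads were mapped to dm3 (the submitters' processing notes name Bowtie2 2.2.9 and cutadapt), and contacts of 40-kb bins were counted with HiCExplorer. They summed 2 replicates per KD, removed bins of low or high coverage, applied ICE and brought compared KDs to a common level with hicNormalize. The deposited signal is a corrected contact value per bin pair, not a count. Bin totals are equal within a matrix, but 15605 in H1-KD and 17788 in Egg-KD, so values were scaled before comparison.

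Here, whole contacts were recovered by dividing each deposited signal by the factors of its bins, and at least 99.995% of those below 50 came out whole within 0.01. Egg-KD was scaled by 0.867 to the within-arm total of H1-KD over the 2950 bins kept in both. The counting error is that of the log2 ratio of recovered contacts and covers counting only. Boundaries were called after the hicFindTADs scheme (windows from 120 to 400 kb, delta 0.01, at least 160 kb apart) and kept at a false discovery rate under 0.01. The recovery of contacts, the short-range change per bin and the calling of boundaries were tried on simulated data, and the other measures were not. For the change per bin the simulation held counting error only, without ICE or differences between experiments.

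Regions named are the 5 with the most negative and the 5 with the most positive peak bin, the 3 boundaries and 3 distant pairs that differed most in each direction, and the loci the study gives by coordinate. Members, measures and lists were chosen with earlier results of these data known. The density quintiles, the density classes and the yardstick without the Nxf2 series were added after these data had been seen. Alternatives were the values as deposited, recovered contacts before ICE, bins kept in all 9 matrices (2942), other distance ranges, observed over expected values, limits of 2 and 4 spreads and other settings for boundaries, TADs, classes and ends. No dm3 annotation was used, so bins carry no gene names. The DamID-seq and ChIP-seq data were not used here. Python 3.11.15, NumPy, SciPy, pandas and matplotlib were used.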

Additional observations from a re-analysis of the deposited data

Results flagged for a closer look

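Among 9 whole-matrix measures compared over the 4 Control-KD matrices, the Control-KD of the Nxf2 series stood far from the others in its share of within-arm signal at 120 to 400 kb, with 19.8%, while that of the Piwi series had 22.1%, that of the H1 and Egg series 22.3% and that of the HP1a series nearly as much as that of the Piwi series. Chance alone flags about 1 in 20 such groups of samples. It enters the comparison of H1-KD with Egg-KD through the yardstick alone, and Egg-KD, at 20.1%, was closest to it.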

How the results depend on the processing

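No paired analysis was possible because the replicates of each KD were merged before deposit, and for the same reason no replicate could be left out. Of 116 alternative values of the main results, 76 stayed within the spread or within 1.5 times the count, 37 moved and 3 turned. The 3 came from the values as deposited, without scaling, and were -0.14 at 1 Mb, -0.095 at 10 Mb and -0.12 for inter-TAD contacts. Without scaling the ratio was also -0.41 at 40 kb, 0.011 at 400 kb, -0.098 between arms, and -0.29 for intra-TAD contacts, all by the construction of that alternative. Before ICE, 65 bins were lower and 58 higher at short range, the SD per bin was 0.12 at short and 0.13 at long range, and 35 boundaries were specific to Egg-KD. The ends then had -0.17 (centromere-proximal, short range), 0.014 (telomere-proximal, short range) and 0.056 (centromere-proximal, long range). With contacts at 80 to 400 kb the short-range SD was 0.14, 295 bins were lower, and the ends had -0.13 and 0.064. With 40 to 200 kb, 86 bins were lower. With observed over expected values 61 bins were higher, and the ends had -0.17 and 0.068. Limits of 2 and 4 spreads gave 410 and 31 lower and 456 and 53 higher bins at short range, and 177 and 17 lower and 326 and 70 higher bins at long range. Without the Control-KD of the Nxf2 series in the yardstick, 315 bins were lower and 368 higher at short range, and 93 lower at long range. Requiring the same bin for a shared boundary gave 47 and 41 specific boundaries. Telomere-proximal ends taken shorter than 1 Mb gave 0.054 and those of 2 Mb 0.0095 at short range, and 0.016 at long range. The class difference at 400 kb to 1 Mb was -0.0046. Of the named bins, X 4640001 (0.19), 3R 25240001 (0.013), X 21480001 (-0.11) and X 200001 (-0.024) turned sign before ICE, and that of TAD probe-1 turned with observed over expected values (-0.023). Except where a value or the construction is given, the cause was not tested. Depth limits single bin pairs most, since few distant pairs reach 100 contacts, and merged replicates leave biological spread unknown.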
